A study of Homo sapiens with 24 samples.

Results

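Gene expression was compared between U87 MG cells, a human glioblastoma line, irradiated with 2 Gy of protons in the presence of Si306 and the same cells given 2 Gy alone. Si306 is a small-molecule inhibitor of the SRC family kinases, used at 10 µM, and all RNA was taken 24 h after irradiation. The comparison was selected by its labels (Si306 and a proton dose of 2 Gy) and holds 6 of the 24 scans of the series, read from 2 of its 8 two-colour arrays. On both arrays the Si306 + 2 Gy RNA was labelled with Cy5 and the 2 Gy RNA with Cy3, so each ratio is the change added by Si306 to cells that all received protons. The other groups used here were Si306 + 10 Gy against 10 Gy alone, and 2 Gy or 10 Gy alone against untreated cells. No array of Si306 without protons was analysed here, and dyes were never swapped, but Cy5 marked the treated RNA on the protons-alone arrays too, and their values are given beside the DEGs.

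SRC is a tyrosine kinase at the inner face of the membrane that relays signals from integrins and growth factor receptors to focal adhesions, MAP kinases and STAT factors. Its relatives FYN, YES1 and LYN share its domains and many substrates, and inhibitors of the SRC pocket commonly reach ABL kinases as well. In glioblastoma, SRC activity is known for its links with invasion and with signalling from EGFR and PDGFR. The kinases act on proteins, so the transcript changes described below are a readout of the cell and not of kinase activity.

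The 6 scans are 3 readings of each array, replicates 1, 3 and 5 of array 1 and replicates 2, 4 and 6 of array 2, and were averaged by array. Readings of an array differed by a standard deviation of 0.0814 (log2 ratio over probes), the 2 arrays by 0.143 and arrays of different configurations by 0.411. In each scan, 57.6 to 59.3% of probes gave a Cy3 signal, and 64.6 to 67% a Cy5 signal, well above background. The labels number the 6 scans as biological replicates, but no source used here says whether the 2 arrays carried separate cultures, so p-values measure the spread between arrays, which may be technical. Intensities below are normalised and include an offset of 50 units, which shrinks the ratios of dim probes. Of the U87 and glial markers, 17 of 23 measured were bright in both dyes on both arrays, among them vimentin (VIM), CD44, FN1, LGALS1, NES and GFAP, and CHI3L1 was not well above background.

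Si306 up regulated 150 genes and down regulated 42 at 2 Gy, 0.653% and 0.183% of the 22981 genes tested. These differentially expressed genes (DEGs) changed at least 2-fold with a limma adjusted p under 0.05. With median centring of each scan in place of loess, where the median of all genes was 0.39, the split was 3256 up and 176 down. The median fold was 2.35 among the up regulated and 2.26 among the down regulated DEGs. A change of at least 4-fold was found for 19 up regulated genes and for 1 down regulated gene, TNNI2. Without the fold limit, 66.2% of all genes passed the test, 38.4% that rose and 27.9% that fell, most of them slightly, since the standard deviation of all log2 changes was 0.31. At 1.5-fold or more, 3.5% rose and 2.15% fell. With limma's own normexp estimate of the background in place of the negative control spots there were 57 DEGs, all among the 192, and fewer members passed the test in each of the 42 gene lists. Beside these shares the counts for gene groups below have to be read. Among the DEGs, 77 up regulated and 28 down regulated ones carried the symbol of a known gene. The protons-alone arrays have the same dye orientation but lie on another slide. On them 0 up regulated and 0 down regulated DEGs changed at least 2-fold in the same direction at either dose. HBA1, CCR3 and TNNI2, for example, had 0.06, -0.17 and -0.13 with 2 Gy alone. DEGs of protons alone were few among the 22981 genes, 167 up and 22 down with 2 Gy and 205 and 40 with 10 Gy. Such overlap is therefore rare in any case, and a dye effect was not tested. The control dye was not well above background on either array for 20 up regulated DEGs. For 17 of these the fold rests on that dim signal and is uncertain, and for the other 3 the arrays differed by more than 1 on the log2 scale.

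Across all genes the log2 changes of the 2 arrays correlated with r = 0.916, as a description over 22981 genes that share the arrays and are not independent. Of the DEGs, 149 of 150 up regulated and 42 of 42 down regulated genes changed in the same direction on both arrays. For 6 up regulated DEGs and 1 down regulated DEG the arrays differed by more than 1 on the log2 scale. GCNT3, a glycosyltransferase of mucins, had log2 ratios of -0.01 and 3.31 on arrays 1 and 2, and the chemokine receptor CCR10 had 0.05 and 3.18. Both were picked after their values were seen. ASAH1, the acid ceramidase of the lysosome, had -0.29 and -2.98, and another of its probes had 0.19. An unnamed transcript with 8.57 on array 1 and 0.21 on array 2 gave the highest fold of all DEGs, 21. These 7 genes rest on 1 array each.

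**Figure D1:**
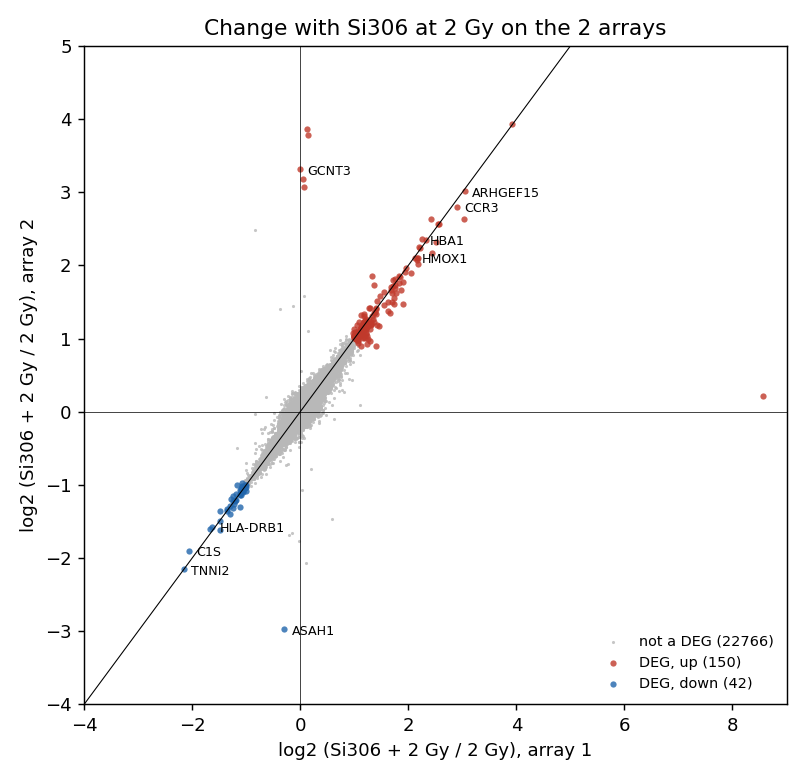
Log2 ratio of Si306 + 2 Gy over 2 Gy on array 1 (x axis) and array 2 (y axis), with 1 point for each gene measured on both arrays; the line marks equal values, and 23 genes measured on 1 array are left out. The 150 up regulated (red) and 42 down regulated (blue) DEGs follow the line, apart from those far from it such as GCNT3 and ASAH1, which moved on 1 array.

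The gene with the largest named rise was ARHGEF15, a guanine nucleotide exchange factor. Its intensities were 930 and 815 in the 2 Gy channel of arrays 1 and 2 and 7672 and 6568 in the Si306 channel, an 8.16-fold rise (log2 change 3.03, SE 0.0357, n = 2 arrays, adjusted p = 1.46e-10). CCR3, the receptor of eotaxins, went from 129 and 111 to 964 and 774, a 7.22-fold rise (SE 0.057 on the log2 scale). CCL26, which encodes eotaxin-3, a ligand of CCR3, had log2 ratios of 1.68 and 1.67, and another probe of it had 1.68. Thus the receptor and a ligand were both up regulated, each on both arrays. C5AR2, a receptor of the complement fragment C5a, had log2 ratios of 2.44 and 2.17.

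Other large rises included genes of the cell surface, matrix and protease control. SIRPA, the receptor of CD47, had log2 ratios of 2.43 and 2.63, but another probe of SIRPA had -0.22. CEACAM1, an adhesion molecule, had 2.52 and 2.33, while its 2 other probes lay between -0.07 and 0. These probes may report different transcripts of a gene, and which one the change belongs to was not tested. The trypsin inhibitor SPINK1 had 1.95 and 1.97, fibrillin FBN2 had 1.72 and 1.81 with 0.21 at its other probe, and APOL6 of the apolipoprotein L family had 2.05 and 1.9 with -0.28 at its other probe. ADAMTS1, a protease of the matrix, had 1.83 and 1.85, and another probe of it had 2. Over all DEGs with another usable probe (35 up, 17 down), the other probes had the same sign for 22 and 15 genes and reached at least 50% of the change for 3 and 3.

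**Figure D2:**
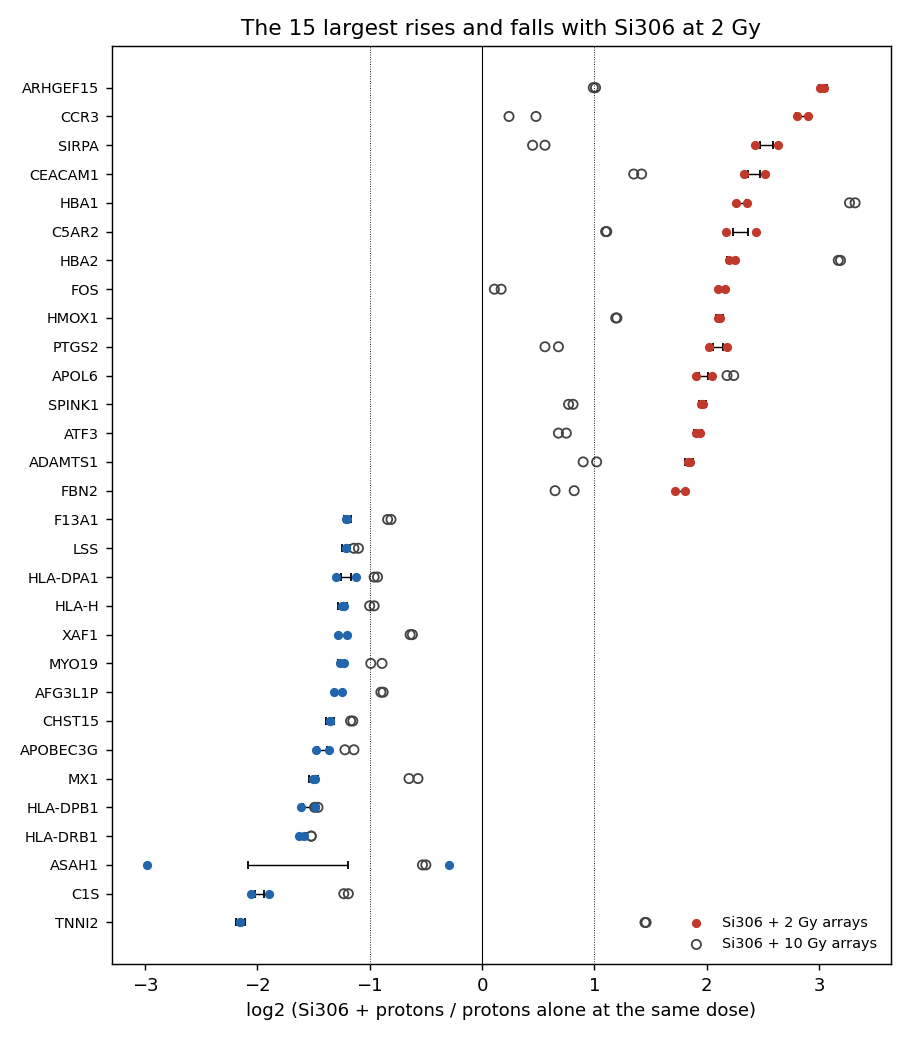
The 15 largest rises and 15 largest falls among named DEGs, as log2 ratio of Si306 + protons over protons alone; filled points are the 2 arrays at 2 Gy (red up, blue down), open circles the 2 arrays at 10 Gy, and bars the SE of the 2 Gy mean. The arrays of a dose lie close together except for ASAH1, and at 10 Gy most open circles lie nearer to 0, while TNNI2 lies on the other side of it.

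The named rises also included 2 immediate early genes, FOS and ATF3. FOS, a subunit of the AP-1 factor that is transiently induced by growth signals, went from 402 and 388 to 1802 and 1659, with log2 ratios of 2.16 and 2.1 (SE 0.0337, adjusted p = 4.81e-10). HMOX1, the haem oxygenase that responds to oxidants, went from 1780 and 1840 to 7743 and 7904, a 4.32-fold rise. ATF3, a transcription factor of the stress response, had log2 ratios of 1.94 and 1.9, whereas its other probe had -0.09. PTGS2, the inducible cyclooxygenase, had 2.18 and 2.02 and 0.74 at its other probe. On the arrays of 2 Gy against untreated cells the 2 Gy group is the treated one, and whether its RNA was the preparation used as control here is not stated. The log2 change there was -0.87 for FOS, -0.28 for ATF3 and 0.24 for HMOX1.

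As a group, 13 of 21 immediate early genes rose and 4 fell, with a median log2 change of 0.2 against 0.04 over all genes, and 6 rose by at least 1.5-fold. The counts were 18 and 1 relative to all genes under median centring, 10 and 6 with the scanner's log ratio, and 5 and 3 with limma's own normexp estimate. JUND (0.69) and FOSB (0.64, but 0.1 with limma's estimate) were among the genes that rose, while MYC, the growth-promoting factor, fell by 0.46 (other probe 0.24) and lay 0.18 above the median of all genes under median centring in place of loess. Of 16 MAPK feedback genes, 7 rose and 7 fell, and 12 rose and 4 fell relative to all genes under median centring. DUSP1, a phosphatase that switches off MAP kinases, had log2 ratios of 1.41 and 1.42, and SPRY2, an inhibitor of receptor signalling, rose by 0.59. ETV4 (-0.35) and SPRED2 (-0.34) fell slightly, and both had -0.08 and lost the call with limma's estimate.

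The heat shock, unfolded protein and NRF2 lists held 2, 1 and 1 up regulated DEGs. HSPA6, a strictly inducible form of HSP70, had log2 ratios of 1.47 and 1.58 and rose 2.88-fold. HSPA1A, the main inducible HSP70, had 1.38 and 1.36 (its other probes 0.28 to 0.42), though its near-identical copy HSPA1B may share the signal. The co-chaperone DNAJB1 rose by 0.93. The constitutive HSPA8 fell by 0.55 (other probes -0.9 to -0.54) and lay 0.41 above the median of all genes under median centring. Over the 24 chaperones measured, 10 rose and 5 fell, with a median of 0.01, and 3 rose by at least 1.5-fold. Relative to all genes under median centring 19 rose and 5 fell (median 0.58), and with the scanner's log ratio 9 rose and 7 fell. Of 29 ATF4 and unfolded protein response genes, 16 rose and 8 fell (22 and 4 under median centring), with DDIT4 at 0.83, DDIT3 at 0.82 and DNAJB9 at 0.78 after ATF3. Of 26 NRF2 targets, 14 rose and 9 fell: after HMOX1 the largest were ferritin light chain FTL at 0.81 (other probes 0.51 to 0.64), the transporter ABCC3 at -0.6 and MAFG, which fell by 0.51 (other probe -0.09) but lay 0.07 above the median of all genes under median centring.

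The promoter of HSPA6 is shown because it holds the binding motif of heat shock factors. The motif searched was GAA, any 2 bases, TTC, any 2 bases and GAA, on both strands, present in 0.439% of 27305 promoters and in 2 of 23 chaperone promoters, those of HSPA6, which rose, and HSPA8, which fell. Promoters here are the 250 bases before the gene start from RefSeq on GRCh38.p14, written 5′ to 3′ on the gene's strand with the motif in capitals, and a match is a description and not a proven site. HSPA6 lies on the plus strand (chr1:161524290-161524539), with the motif at positions -74 to -62 from the start.
HSPA6: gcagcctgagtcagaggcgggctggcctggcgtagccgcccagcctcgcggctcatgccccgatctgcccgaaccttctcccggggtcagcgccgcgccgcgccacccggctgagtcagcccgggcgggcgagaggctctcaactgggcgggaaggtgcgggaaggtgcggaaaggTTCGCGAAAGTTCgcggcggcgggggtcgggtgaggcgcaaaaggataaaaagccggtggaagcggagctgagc

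Of 37 glycolysis and hypoxia genes measured, 23 rose and 4 fell, with a median log2 change of 0.19, and 36 rose and 1 fell under median centring. The vasodilator peptide adrenomedullin (ADM) went from 2014 and 1926 to 5315 and 5098, and ANKRD37 had log2 ratios of 1.19 and 1.15. EGLN3, an oxygen-sensing hydroxylase, rose by 0.94, and hexokinase HK2 rose by 0.93 with 0.18 at its other probe. The 4 genes that fell lay at -0.28 or above. The median stayed above that of all genes under each of 22 alternative settings (0.08 to 0.71). Some of these settings could not move it. Leaving out an array of another configuration, or counting scans as replicates, hardly changes the mean ratios.

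Of 38 cytosolic ribosomal protein genes, 36 rose and 1 fell, with a median of 0.51, and 11 rose by at least 1.5-fold. RPL9 had log2 ratios of 1.11 and 1.04 and 1.01 to 1.18 at its other probes. RPL35 (0.89, other probes 0.45 to 1.03), RPS18 (0.81) and RPS29 (0.77) followed. The list stayed above the median of all genes under each of these 22 settings, by 0.26 to 1.39, though several could not move it. Many ribosomal protein genes have processed pseudogenes of near-identical sequence, which the probes may also bind.

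**Figure D3:**
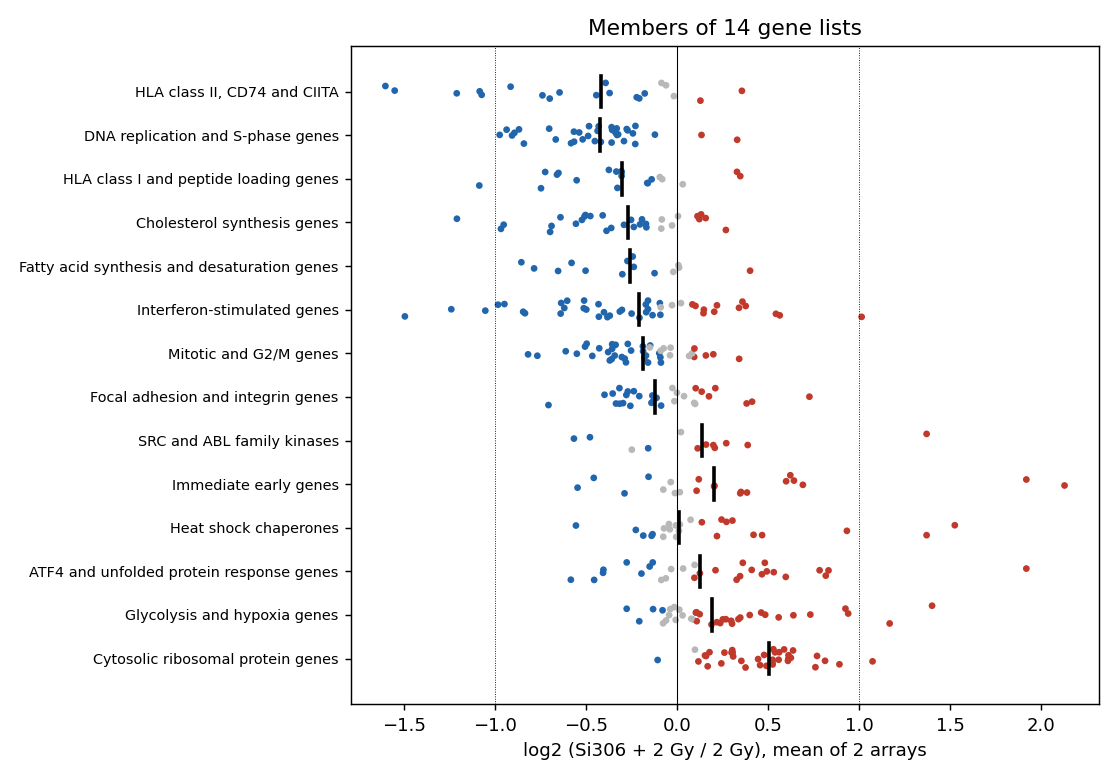
Log2 change with Si306 at 2 Gy for each measured member of 14 gene lists, with 1 point a gene (mean of 2 arrays), red where it rose, blue where it fell and grey where it did not pass the test; the black bar is the list's median and dotted lines mark 2-fold. HLA class II and S-phase genes lie lowest, both with a median of -0.42, and ribosomal protein genes highest at 0.51.

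The down regulated DEGs included 5 of 20 class II and 1 of 20 class I and peptide loading genes. HLA class II molecules carry peptides from ingested proteins to CD4+ T cells, and are expressed by some glioma lines under the control of CIITA. HLA-DRB1 went from 5765 and 5942 in 2 Gy cells to 1867 and 1990 with Si306, log2 ratios of -1.63 and -1.58 (3.04-fold lower, SE 0.0319, adjusted p = 1.95e-09). HLA-DPB1 went from 598 and 700 to 213 and 228 (other probe -1.13), and HLA-DPA1 from 1004 and 1019 to 461 and 415 (other probe -0.41). CD74, the invariant chain that escorts class II molecules, had log2 ratios of -1.11 and -1.06. HLA-DRA, the chain that pairs with HLA-DRB1, had -1.07 and -1.07. HLA-DQB1 had -0.85 and -0.98, although its other probes lay at 0.13 to 0.17. CIITA itself fell by 0.39, with other probes from -0.61 to 0.09 and -0.08 (adjusted p = 0.167) with limma's estimate. HLA-DRA, HLA-DQB1 and CIITA were picked after their values were seen.

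Of 20 genes of the class II list measured, 15 fell and 2 rose, with a median of -0.42. The list also holds CD74, CIITA and the regulators RFX5, RFXANK and RFXAP. 9 fell by at least 1.5-fold and 5 were DEGs. Array 1 and array 2 gave list medians of -0.43 and -0.4. The list lay below the median of all genes under each of the 22 settings, by 0.2 to 0.72, though several could not move it. The DRB genes are close copies of each other, so HLA-DRB1 cannot be separated from HLA-DRB3, HLA-DRB4 or HLA-DRB5 with certainty. Markers of macrophages, which also express class II, were bright in both dyes for 9 of 13 measured, and their summed intensity was 5085 and 5226 in Cy3 and 3964 and 4148 in Cy5. Of these markers 6 rose and 5 fell, with CD68 at 0.84 and LYZ at -0.99, whereas relative to all genes under median centring 1 rose and 7 fell. CD163 and ITGAX were not well above background, and PTPRC and AIF1 were not among the measured genes. The part of such cells in the class II result was not tested.

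Class II promoters share an inverted CCAAT element, the Y box, searched as CTGATTGG on both strands. It was present in 7 of 16 promoters of the class II list (43.8%), that of RFX5 among them, and in 3.98% of all promoters. Of the 6 genes with it that were measured, 4 fell, and of 9 whose promoter was searched and lacks it 6 fell. The other 5 measured genes had no promoter searched. HLA-DRB1 and HLA-DQB1, both on the minus strand, are shown as members that fell and hold it, at positions -49 to -42 (chr6:32589849-32590098) and -91 to -84 (chr6:32666658-32666907).
HLA-DRB1: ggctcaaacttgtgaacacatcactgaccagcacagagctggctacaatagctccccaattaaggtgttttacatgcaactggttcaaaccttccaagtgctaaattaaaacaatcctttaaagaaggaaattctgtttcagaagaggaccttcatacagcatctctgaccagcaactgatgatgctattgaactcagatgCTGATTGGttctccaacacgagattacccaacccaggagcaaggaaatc
HLA-DQB1: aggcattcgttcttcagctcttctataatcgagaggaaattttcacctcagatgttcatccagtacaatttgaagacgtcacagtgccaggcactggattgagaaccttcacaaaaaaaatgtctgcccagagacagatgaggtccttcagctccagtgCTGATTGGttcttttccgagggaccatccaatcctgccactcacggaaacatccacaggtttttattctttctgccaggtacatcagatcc

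Class I molecules present peptides of the cell itself to CD8+ T cells. Of 20 class I and peptide loading genes, 15 fell and 2 rose, with a median of -0.3. PSMB9, a subunit of the immunoproteasome, had log2 ratios of -1.08 and -1.09 and was the DEG of the list. HLA-B (-0.75), B2M (-0.72) and HLA-E (-0.66) fell, with other probes at -1.02, -0.11 and -0.98 to -0.3, but relative to all genes they lay at 0.12, 0.21 and 0.14 under median centring, where 11 genes of the list rose and 4 fell. With the scanner's log ratio 2 genes of the list rose and 15 fell, and with limma's estimate 2 rose and 13 fell. HLA-H, a class I pseudogene that shares sequence with the class I genes, had -1.25 and -1.23. On the arrays of 2 Gy alone, this control group against untreated cells gave 1.37 for HLA-H, 0.66 for HLA-B and 0.54 for B2M.

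**Figure D4:**
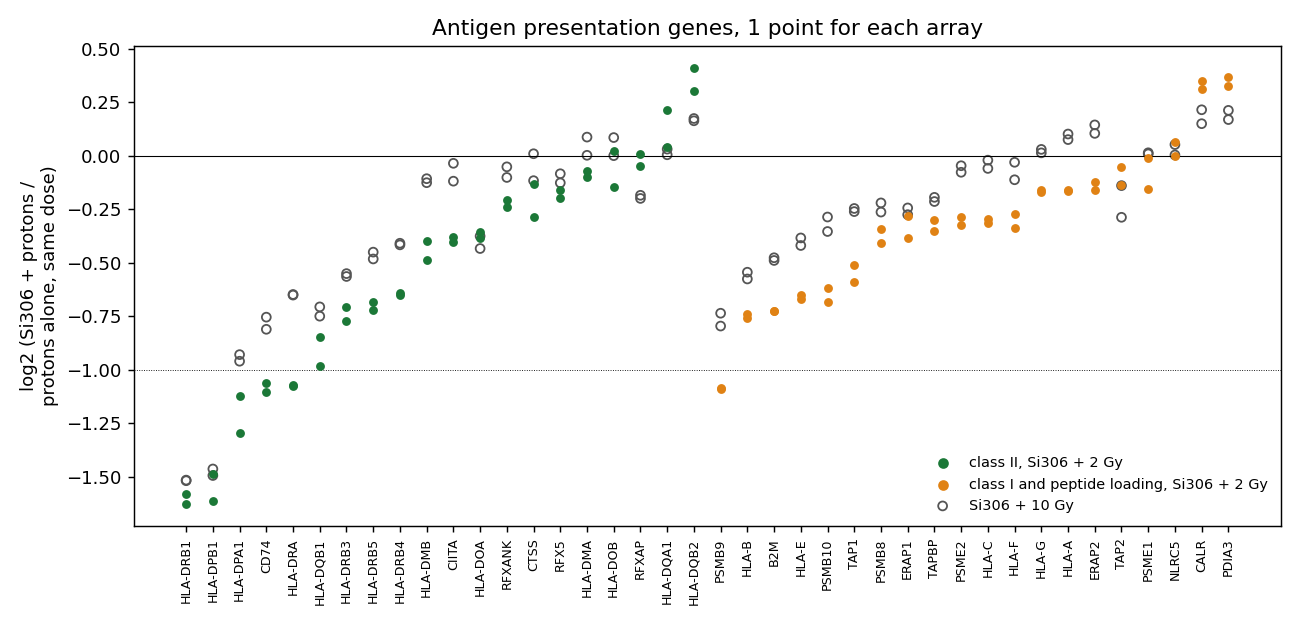
Log2 ratio of Si306 + protons over protons alone for antigen presentation genes, with 1 point for each array; green marks class II and orange class I and peptide loading genes at 2 Gy, open circles the arrays at 10 Gy, and the dotted line a 2-fold fall. HLA-DRB1 and HLA-DPB1 lie lowest at both doses, and PSMB9 lies lowest of the class I genes.

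Interferon-stimulated genes, many of which act against viruses, fell more often than they rose. Of 45 measured, 30 fell and 12 rose, with a median of -0.21. MX1, an antiviral GTPase, went from 1196 and 1245 to 426 and 440 (log2 ratios -1.49 and -1.5). XAF1, an antagonist of the apoptosis inhibitor XIAP, had -1.28 and -1.2 (-0.6 to -0.54 at its other probes), and GBP1, a guanylate-binding protein, had -1.08 and -1.03 (other probe -0.99). IFI6, picked after its values were seen, had -1.01 and -0.95. OASL went the other way, with log2 ratios of 1 and 1.03, and was the up regulated DEG of the list. APOBEC3G, a cytidine deaminase that restricts retroviruses and was counted outside the list, had -1.48 and -1.36 (other probe -0.64). Under median centring the list's direction was not kept, with 23 genes that rose and 17 that fell relative to all genes. With the scanner's log ratio 9 rose and 26 fell, and with limma's estimate 10 rose and 18 fell.

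Of 28 JAK, STAT and SOCS genes 14 rose and 8 fell, with the cytokine receptors OSMR at 0.59 (other probes -0.15 to -0.03) and LIFR at 0.58 (other probes -0.15 to 0.45), and the feedback inhibitor SOCS1 at -0.5 (other probe 0.01, and -0.17 with limma's estimate, where the call was lost). The interferon response element was searched as GAAA, any 2 bases and GAAA, on both strands. It was present in 21 of 35 interferon-stimulated promoters (60%) and in 3.07% of all promoters. Of 20 measured genes with it 12 fell (median -0.19), and of 14 whose promoter was searched and lacks it 12 fell (median -0.38). The other 11 measured genes had no promoter searched. GBP1 (chr1:89065209-89065458) and IFI6 (chr1:27672193-27672442), both on the minus strand, are shown as genes that fell with 1 and 3 matches, the first at positions -127 to -118 and -156 to -147.
GBP1: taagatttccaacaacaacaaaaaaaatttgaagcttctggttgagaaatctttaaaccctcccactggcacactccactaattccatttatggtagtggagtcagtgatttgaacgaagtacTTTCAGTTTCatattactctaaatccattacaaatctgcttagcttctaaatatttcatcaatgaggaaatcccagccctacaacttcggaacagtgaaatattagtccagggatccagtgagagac
IFI6: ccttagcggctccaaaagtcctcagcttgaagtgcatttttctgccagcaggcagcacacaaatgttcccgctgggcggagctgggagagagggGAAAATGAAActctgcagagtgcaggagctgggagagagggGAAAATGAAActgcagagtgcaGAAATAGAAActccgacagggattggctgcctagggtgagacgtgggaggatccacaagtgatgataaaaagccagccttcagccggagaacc

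Complement genes changed in both directions. C1S, the protease that starts the classical cascade, went from 1226 and 1162 to 294 and 311, a 3.95-fold fall (log2 ratios -2.06 and -1.9, adjusted p = 2.28e-09). Its partner protease C1R fell by 0.79. CFD, factor D of the alternative pathway, had 1.06 and 1.07, and CD55, which protects cells from complement, rose by 0.72 with other probes at 0.06 to 0.89. Of 22 measured, 8 rose and 9 fell, and 7 rose and 13 fell under median centring.

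Of 36 DNA replication and S-phase genes, 34 fell and 2 rose, with a median of -0.42 and 8 genes at 1.5-fold or more. GINS1, a subunit of the replicative helicase, had log2 ratios of -1.01 and -0.94, RRM2 of ribonucleotide reductase -0.95 and -0.93 (other probe -0.31), CDC45 -0.9 and -0.92, and GINS3 -0.93 and -0.86 (other probe -0.52). None of the list was a DEG. Of 41 mitotic and G2/M genes 29 fell and 5 rose (median -0.19), with CENPF at -0.82 (other probe -0.13), NUSAP1 at -0.77, KIF23 at -0.61 and PLK1 at -0.55. These directions depended on the scaling: relative to all genes under median centring, 13 S-phase genes rose and 9 fell, and 29 mitotic genes rose and 4 fell, while the calls of CENPF (-0.07), KIF23 (-0.1) and PLK1 (-0.01) were lost. With the scanner's log ratio 1 S-phase gene rose and 34 fell, and 3 mitotic genes rose and 29 fell. With limma's estimate the counts were 0 and 26, and 1 and 13. Among G1 regulators (7 rose and 10 fell, against 14 and 5 under median centring) RB1 fell by 0.7 with -0.07 at its other probe, and MXI1, an antagonist of MYC, rose by 0.61.

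E2F factors drive many S-phase genes. Their site was searched as TTTCCCGC and TTTGGCGC on both strands, 2 forms that do not overlap in sequence. The first was in 25% and the second in 15.6% of 32 S-phase promoters, against 1.42% and 0.553% of all promoters. Of 8 measured genes with the first form 8 fell (median -0.39), and of 24 searched that lack it 22 fell (median -0.44). For the second form 4 of 5 with it fell (median -0.49) and 26 of 27 without it (median -0.43). MCM7, a subunit of the MCM helicase that was picked after its values were seen, fell from 28858 and 29524 to 16249 and 16335 (log2 ratios -0.83 and -0.85). Relative to all genes under median centring it lay at -0.05 (adjusted p = 0.432). Its promoter on the minus strand (chr7:100101398-100101647) holds the first form at positions -187 to -180.
MCM7: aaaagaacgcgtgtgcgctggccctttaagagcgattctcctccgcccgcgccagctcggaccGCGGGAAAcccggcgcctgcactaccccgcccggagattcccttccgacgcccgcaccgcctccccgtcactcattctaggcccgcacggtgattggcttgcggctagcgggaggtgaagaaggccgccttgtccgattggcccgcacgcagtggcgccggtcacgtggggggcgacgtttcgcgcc

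Of 30 cholesterol synthesis genes 21 fell and 5 rose, with a median of -0.27. LSS, which closes the sterol rings, went from 4951 and 4624 to 2143 and 2000 (log2 ratios -1.21 and -1.21), while its 3 other probes ranged from -1.01 to -0.03. IDI1 of the isoprenoid branch had -0.95 and -0.99. MVK, mevalonate kinase, fell by 0.7 (other probe -0.27) and lay 0.01 above the median of all genes under median centring, where 10 genes of the list rose and 10 fell. Of 14 fatty acid genes 10 fell and 1 rose, against 7 and 4 under median centring. The largest were FADS2 at -0.86 (other probe -0.06), LPIN1 at -0.78 (other probe 0.1), ACSL3 at -0.65 (other probe -0.06) and SCD at -0.58 (other probes -0.22 to -0.09). ACSL3 lost its call with limma's estimate (-0.39) and SCD under median centring (-0.02).

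The transcripts of SRC and ABL family kinases changed by less than 1.5-fold, apart from ABL2. ABL2 had log2 ratios of 1.41 and 1.34 (2.59-fold, SE 0.0337) with 0.28 at its other probe. LYN rose by 0.39, FYN by 0.11, and ABL1 fell by 0.48, with 0.05 to 0.09 at its other probes and -0.11 under median centring. FYN and YES1 lost their calls with limma's estimate (0.12 and -0.07). YES1 fell by 0.16 and lay 0.25 above the median of all genes under median centring. SRC itself had log2 ratios of 0.16 and 0.16 (1.12-fold), with a control signal of 84 and 86 that was not well above background, so the fold is uncertain. It had 0.02 (adjusted p = 0.921) with limma's own normexp estimate, and lay at -0.44 relative to all genes under median centring. FRK (0.27) and FGR (0.21) were also dim in the control dye and LCK (0.2) in both dyes, and they lay at -0.3, -0.58 and -0.82 under that setting, and at 0.04, 0.02 and 0.02 with limma's estimate, which ended the 3 calls. CSK, which restrains SRC, had -0.25 (adjusted p = 0.0657), and BLK 0.02 (adjusted p = 0.524) with both dyes dim. Of the 12 SRC and ABL family genes measured, 7 rose and 3 fell, against 4 and 7 relative to all genes under median centring.

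Adhesion is a main site of SRC signalling. Of 30 focal adhesion and integrin genes 17 fell and 7 rose, with a median of -0.12 that became 0.25 under median centring (19 rose, 8 fell relative to all genes). Integrin ITGB3 rose by 0.73 (other probes 0.24 to 0.29) and FERMT2 by 0.41, whereas filamin FLNA fell by 0.71 and ITGA2 by 0.4, the latter with 0.42 at its other probe and 0.01 as the mean of its probes. With limma's estimate ITGB3 had 0.16 (adjusted p = 0.121), FLNA -0.2 (adjusted p = 0.651) and ITGA2 -0.09 (adjusted p = 0.0689). Of 17 serum response factor and YAP targets 8 rose and 7 fell, and 12 rose and 3 fell under median centring. Smooth muscle actin ACTG2 had log2 ratios of 1.06 and 0.97. THBS1 fell by 0.44 (other probe -0.15), with -0.01 under median centring and -0.3 with limma's estimate, both without a call. AXL and TPM1 fell by 0.55 and 0.46 (other TPM1 probes -0.48 to 0.13) but lay 0.11 and 0.24 above the median of all genes under median centring.

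Of 42 receptor tyrosine kinases and ligands of glioma 15 rose and 12 fell, and 1 and 2 of these reached 1.5-fold. Relative to all genes under median centring 15 rose and 22 fell. The EGFR ligand epiregulin (EREG) rose by 0.72, with 0.53 at its other probe. EPHA2 fell by 0.6, but had -0.12 (adjusted p = 0.341) with limma's estimate. PDGFRA fell by 0.64, while its other probe had 0.24.

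Collagen and matrix enzyme genes changed in both directions. COL3A1 had log2 ratios of 1.3 and 1.19, the collagen cross-linking enzyme LOX 1.17 and 1.17, and COL8A1 1.06 and 1.07, and these were the 3 DEGs of the collagen list, in which 13 of 30 genes rose and 11 fell. COL7A1 went the other way at -0.95 (-0.69 and adjusted p = 0.0515 with limma's estimate). The urokinase receptor PLAUR fell by 0.78. The gelatinase MMP2 rose 1.53-fold with a control signal not well above background, but had 0.08 (adjusted p = 0.557) with limma's own normexp estimate. TIMP4, an inhibitor of such enzymes, rose by 0.61. Of 30 matrix proteases and inhibitors 13 rose and 10 fell. Of 27 proteoglycan and hyaluronan genes 11 rose and 6 fell, with the hyaluronan-binding proteoglycan versican (VCAN) at 0.61, a balance that turned to 10 that rose and 15 that fell relative to all genes under median centring. TNC fell by 0.52, but had -0.01 (adjusted p = 0.877) under median centring, and CD44 rose by 0.42. Of 34 TGF-beta, BMP and ID genes 10 rose and 13 fell, against 15 and 12 under median centring.

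Of 27 cytokines and chemokines 11 rose and 7 fell (10 and 13 under median centring), with CXCL2 at 0.63 (other probe 0.06) and IL1B at 0.56 (0.08 with limma's estimate, without a call) after CCL26. Of 19 NF-kB subunits and targets 11 fell and 2 rose, a balance that turned to 11 that rose and 3 that fell relative to all genes under median centring. SOD2 (-0.53, other probe 0.21, and -0.03 without a call under median centring) and TRAF1 (-0.39, other probe 0) fell, as did BCL3 (-0.48), which lay 0.12 above the median of all genes under median centring. TNFAIP3, a brake on NF-kB, rose by 0.51 (other probe -0.1), but had 0.09 (adjusted p = 0.108) with limma's estimate.

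Of 31 p53 targets 14 rose and 11 fell (median 0.05, and 14 and 6 under median centring), and of 33 BCL2 family, caspase and death receptor genes 12 rose and 13 fell. Under median centring 21 of the latter rose and 5 fell relative to all genes. GDF15, a stress cytokine, rose by 0.8 and PLK2 by 0.44, while PLK3 fell by 0.74 (-0.1 without a call under median centring). BBC3 (PUMA) fell by 0.56 at a probe of 85% GC, but its other probes lay at 0.02 to 0.27 and the value was 0.02 without GC-rich probes. CASP8, the initiator caspase of death receptors, rose by 0.86 with 1.17 at its other probe, APAF1 rose by 0.56 and CASP1 fell by 0.56.

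The remaining lists had few large members. LEF1, a factor of Wnt signalling, had log2 ratios of -0.98 and -0.96 (other probe -0.15), the Wnt inhibitor DKK1 rose by 0.76, beta-catenin CTNNB1 by 0.66 (other probe 0.31), and WNT6 fell by 0.63 at a probe of 76.7% GC, with -0.01 at its other probe, which is also the value without GC-rich probes. Of 34 Wnt genes 11 rose and 13 fell. The xenobiotic receptor AHR rose by 0.85 and CYP1A2, an enzyme under its control, by 0.94, whereas the efflux pump ABCC5 fell by 0.92 with 0.53 at its other probe and -0.19 (adjusted p = 0.208) as the mean of its probes. Of 15 drug efflux and CYP genes 8 rose and 5 fell, against 5 and 9 under median centring. In the lysosome and autophagy list 17 of 35 rose and 9 fell (27 and 5 under median centring, median 0.59), led after ASAH1 by MITF (0.62, other probes 0.13 to 0.23) and cathepsin CTSH (0.56). Of 39 calcium channel, pump and receptor genes 8 rose and 10 fell, with the plasma membrane pump ATP2B4 at -0.51 (other probe -0.08, and -0.03 without a call under median centring), PLCB1 at 0.45 (other probe 0, and 0.08 without a call with limma's estimate) and ITPR1 at 0.4, and 10 rose and 20 fell under median centring. Of 36 respiratory chain genes 11 rose and 14 fell, and of 13 metallothioneins 5 rose and 6 fell. Relative to all genes under median centring 32 respiratory chain genes rose and 1 fell, and 12 metallothioneins rose and 1 fell. Of 23 glial, neural stem and mesenchymal markers 6 rose and 8 fell. Vimentin (-0.18) and NES (-0.2) fell slightly and lay 0.87 and 0.19 above the median of all genes under median centring, NES had -0.09 (adjusted p = 0.469) with limma's estimate and VIM -0.12 (adjusted p = 0.0931) without array 2, and GFAP (0.04, adjusted p = 0.494), FN1 (-0.06, other probes -0.54 to 0.32), LGALS1 (0.03) and CHI3L1 (-0.09) did not pass the test.

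The other named falls among the 15 largest were of varied function. CHST15, a sulfotransferase of chondroitin sulfate, went from 9291 and 9222 to 3633 and 3613. MYO19, a myosin of mitochondria, had log2 ratios of -1.23 and -1.26 (other probe -0.32), and the AFG3L1P pseudogene -1.25 and -1.32 (other probe -0.44). F13A1, the A subunit of clotting factor XIII, had -1.2 and -1.21. The largest fall was in TNNI2, a troponin of fast muscle, from 878 and 877 to 198 and 197 at a probe of 60% GC. Of the 17 other muscle markers measured, 5 rose and 5 fell. With TNNI2 included, 3 rose and 12 fell under median centring. PVALB, a calcium buffer of neurons and fast muscle, had -1.11 and -1.15.

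Alpha globin was up regulated. HBA1 went from 698 and 669 to 3340 and 3433, a 4.95-fold rise, and HBA2 from 629 and 660 to 2899 and 3129, although another HBA2 probe had -0.04. The 2 genes encode the same protein and their transcripts are nearly identical, so their probes are not separate evidence. The delta globin HBD rose by 0.52, or 1.44-fold, with a dim control signal. It had 0.07 (adjusted p = 0.0653) with limma's own normexp estimate and 0.08 (adjusted p = 0.261) under median centring, and the call was lost in both. Of 11 red blood cell genes measured 8 rose and 1 fell, yet only HBA1, HBA2 and HBQ1 were bright in both dyes, and relative to all genes under median centring 2 rose and 7 fell. HBZ was dim in both, and HBB, HBG1, HBG2, GATA1 and KLF1 were not among the measured genes. The summed intensity of the list was 2058 and 2105 in Cy3 and 7104 and 7454 in Cy5. For markers of lymphocytes 4 of 10 were bright (6 rose, 1 fell), of neurons 7 of 14 (6 rose, 3 fell) and of endothelial cells 7 of 13 (7 rose, 1 fell), and none of these lists held a DEG. These balances depended on the scaling: relative to all genes under median centring, 3 lymphocyte markers rose and 6 fell, 5 neuron markers rose and 6 fell, and 3 endothelial markers rose and 7 fell.

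The change with Si306 was then set beside that at 10 Gy, where it was measured on 2 other arrays against 10 Gy alone, with no group in common. Of the DEGs at 2 Gy, 139 of 150 up regulated and 39 of 42 down regulated genes passed the test in the same direction at 10 Gy, where 34.2% of all genes rose and 27% fell. As DEGs, 40 and 14 were also found there. The difference between the doses passed the test for 22% of all genes, 9.73% higher and 12.3% lower at 10 Gy. The difference was at least 2-fold for 48 genes (0.209%), 15 of them higher and 33 lower at 10 Gy. Since the DEGs were chosen for their size at 2 Gy, their smaller mean at 10 Gy is in part fixed by the choice: 103 up regulated and 31 down regulated DEGs were smaller at 10 Gy and 13 and 1 larger. The total of 5051 differences became 2585 without array 1 and 3197 without array 2 of Si306 + 2 Gy, with 2444 and 2849 of the 5051 among them. Without array 1 or array 2 of Si306 + 10 Gy it was 2463 and 2219, with 2325 and 2141 of the 5051.

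Several inducible genes and receptors changed more at the low dose. FOS rose by 2.13 at 2 Gy and 0.14 at 10 Gy (difference -1.99, adjusted p = 4.82e-08). HSPA6 had 1.53 and -0.04, CCR3 2.85 and 0.36, SIRPA 2.53 and 0.5, and ARHGEF15 3.03 and 1. For HMOX1 the values were 2.11 and 1.19. In the opposite direction, TNNI2 fell by 2.15 at 2 Gy and rose by 1.46 at 10 Gy (difference 3.61, adjusted p = 5.34e-09), and PVALB had -1.13 and 0.57. CIDEA, a protein of lipid droplets, had 0.06 at 2 Gy, where both dyes were dim, and 2.32 at 10 Gy. The exchanger SLC24A3 had 0.31 and 2.14, its 2 Gy value being -0.03 relative to all genes under median centring, and the proteoglycan decorin (DCN) had 0.31 and 1.82. With limma's estimate DCN and SLC24A3 had 0.17 and 0.05 at 2 Gy, without a call. HBA1 was higher at 10 Gy, 3.29 against 2.31 (difference 0.99, adjusted p = 9.3e-06). With limma's estimate the differences of FOS (-1.33, adjusted p = 0.0685), HSPA6 (-0.59), SIRPA (-0.72), PVALB (0.22), SLC24A3 (0.23) and DCN (0.56) kept their sign but did not pass the test, while those of ARHGEF15, CCR3, TNNI2 and CIDEA passed it.

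The differences between doses were also counted by gene group, beside the 22% of all genes that differed. Of 37 glycolysis and hypoxia genes, 23 were lower and 1 higher at 10 Gy, where the list median was 0. Of 45 interferon-stimulated genes, 36 were higher at 10 Gy and none lower, the list median being -0.02 there. Class II genes were higher at 10 Gy for 10 of 20, but HLA-DRB1 (-1.6 and -1.52, adjusted p of the difference 0.205) and HLA-DPB1 (-1.55 and -1.48, adjusted p = 0.405) did not pass the test of a difference. For S-phase genes 6 of 36 and for cholesterol genes 8 of 30 differed, with list medians at 10 Gy of -0.36 and -0.35. Of 38 ribosomal protein genes, 8 were lower at 10 Gy, where the median was 0.38.

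**Figure D5:**
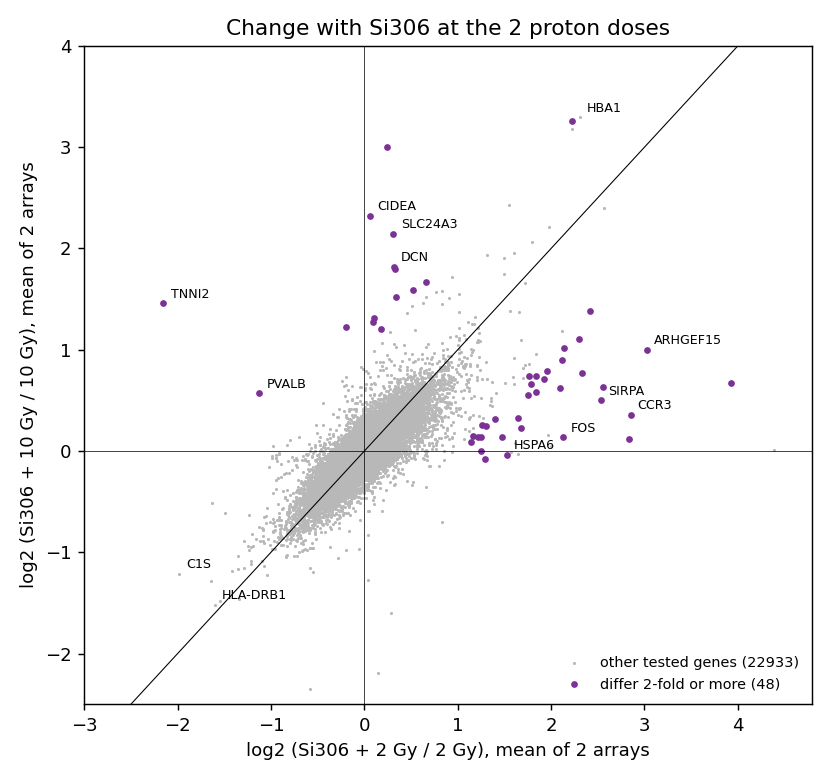
Log2 change with Si306 at 2 Gy (x axis) and at 10 Gy (y axis), each the mean of 2 arrays, with 1 point a gene and a line of equal change; purple marks the 48 genes whose change differed at least 2-fold between doses and passed the test. Most purple points lie below the line at the right (CCR3, FOS, HSPA6), and TNNI2 lies far above it at the left.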

How the data were processed

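The authors hybridised amplified RNA to Agilent 4x44K 2-colour arrays, with Cy5 on the treated and Cy3 on the control RNA, and scanned them with Agilent Feature Extraction. The deposited scanner files hold, per the file headers, mean and background intensity per spot and a log10 ratio (an intensity or ratio with decimal commas, read as numbers), and the deposited value table holds that log10 ratio rounded, with a median of 0 on each scan. The authors' normalization beyond Feature Extraction and their test are not given in the sources used here, and their limit was 2-fold.

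Mean intensity was corrected with normexp (offset 50), with the mean and SD of the background taken from the 153 negative control spots of each scan. This was chosen after seeing the data, because limma's own estimate gave background means from -1150 to 18.3. Loess was run within each scan, control and outlier spots were left out, and probes were kept where a channel was well above background in at least 2 of every 3 scans of a configuration (30478 of 41000). Scans were averaged by array. Of 24 scans, 2 of protons alone whose label and array disagreed were left out. A gene was represented by 1 probe, the brightest on average, and the 22981 genes tested include 14625 matched to a gene symbol. limma 3.58.1 (R 4.3.3) was fitted over all 8 arrays by configuration, without a block, which left 4 residual degrees of freedom. P-values were adjusted over all genes by Benjamini and Hochberg. The precision is limited by 2 arrays for each configuration. The fit and counts were tested on simulated data.

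Promoters came from RefSeq (GRCh38.p14). Genes named were the 15 largest rises and falls, the 4 largest called members of each of 42 lists, SRC family kinases, cell type markers and the 10 largest differences between doses. The members, lists and tests were chosen with earlier results of these data known. Alternatives covered background, scaling, filters, probes, scans, samples and each array left out. Some genes that these rules name are not reported here.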

Additional observations from a re-analysis of the deposited data

Results flagged for a closer look

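For 19 of the named genes the change with Si306 at 10 Gy differed from that at 2 Gy by at least 2-fold in limma's test of the difference itself (each with 2 arrays a dose). The difference of the log2 change, 10 Gy minus 2 Gy, was negative for 13 of them. It was -2.49 for CCR3, -2.03 for ARHGEF15 and -2.03 for SIRPA, -1.19 for C5AR2 and -1.03 for CEACAM1. It was -1.99 for FOS, -1.56 for HSPA6, -1.48 for PTGS2 and -1.21 for ATF3, which are inducible genes. It was -1.17 for SPINK1, -1.09 for ADM, -1.02 for ANKRD37 and -1.02 for FBN2.

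The difference was positive for the other 6. It was 3.61 for TNNI2 and 1.7 for PVALB, both of which fell at 2 Gy and rose at 10 Gy on every array. It was 2.26 for CIDEA, whose dyes were both dim at 2 Gy, so that its change there is uncertain. It was 1.83 for SLC24A3 and 1.51 for DCN, whose change at 2 Gy was small. It was 1.07 for HBD, whose control signal was not well above background at 2 Gy. With limma's own normexp estimate 11 of the 19 differences kept their sign but did not pass the test, -0.72 for SIRPA, -0.7 for CEACAM1, -0.67 for C5AR2, -1.33 for FOS, -0.63 for PTGS2, -0.36 for FBN2, -0.59 for HSPA6, 0.22 for PVALB, 0.06 for HBD, 0.23 for SLC24A3 and 0.56 for DCN.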

How the results depend on the processing

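The count of 192 DEGs (150 up, 42 down) stayed within 1.5 times under 18 of 22 alternatives, from 152 with the mean of a gene's probes to 199 without a filter on dim probes, and from 191 to 199 when 1 array was left out. Not all 18 could move it. Leaving out an array of another configuration, or counting scans as replicates, hardly changes the mean ratios, and gave the same 192 each time. It was 57 (46 up, 11 down, all among the 192) with limma's own normexp estimate, an alternative chosen after seeing the data. It was 1339 (1007 up, 332 down, 180 shared) with the scanner's log ratio and 1340 with the deposited value table. With median centring in place of loess it was 3432 (3256 up, 176 down, 155 shared), and the median of all genes moved to 0.39. Genes with a difference between doses numbered 343, 11716, 12174 and 12153 with limma's normexp estimate, median centring, all scans as replicates and the replicate block, and 2219 to 5620 with 1 array left out, against 5051. Genes that differed at least 2-fold numbered 11 with limma's normexp estimate, 120 with median centring, and 283 with the scanner's ratio and 283 with the value table, against 48. The causes were not tested, except that scans of an array counted as replicates carry less spread than arrays. Replicate numbers name scans and pair no samples: with all scans and the replicate block 192 DEGs were found.

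Relative to the moved median, median centring turned the sign of the log2 change of HSPA8 (0.41), MAFG (0.07), HLA-B (0.12), B2M (0.21), HLA-E (0.14), MVK (0.01), FRK (-0.3), FGR (-0.58), LCK (-0.82), SRC (-0.44), YES1 (0.25), AXL (0.11), TPM1 (0.24), BCL3 (0.12), MYC (0.18), VIM (0.87), NES (0.19) and SLC24A3 (-0.03). Calls that kept their direction but were lost numbered 30 of the named genes with limma's normexp estimate (GCNT3, CCR10, ASAH1, FOSB, ETV4, SPRED2, CIITA, SOCS1, ACSL3, COL7A1, MMP2, FRK, FGR, LCK, SRC, YES1, FYN, ITGB3, FLNA, ITGA2, THBS1, EPHA2, IL1B, TNFAIP3, PLCB1, WNT6, NES, HBD, SLC24A3, DCN) and 14 with median centring (GCNT3, MCM7, CENPF, KIF23, PLK1, SCD, ABL1, THBS1, PLK3, BBC3, SOD2, ATP2B4, TNC, HBD). FYN lost its call without either array, CCR10, YES1 and VIM without array 2, and ABL1, BBC3 and ABCC5 with the mean of a gene's probes. Of 19 named differences between doses, 11 kept their sign and lost the call with limma's estimate (SIRPA, CEACAM1, C5AR2, FOS, PTGS2, FBN2, HSPA6, PVALB, HBD, SLC24A3 and DCN). GCNT3 was 3.31 without array 1 and -0.01 without array 2, ITGA2 0.01 with the mean of its probes and BBC3 0.02 without GC-rich probes. Of the 30 largest changes, 30 kept their sign with limma's normexp estimate, with median centring and with the mean of a gene's probes. Under these settings 17, 19 and 20 of them remained DEGs. The dimmest genes are limited by signal over background.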
